A study of Mus musculus with 2 samples.

Results

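The genes described here are 9 regulators of kidney and somite development: the homeobox genes Meox1 and Meox2, the nephron progenitor factors Six2, Cited1, Eya1 and Osr1, the nephron differentiation factors Lhx1 and Pax8, and the stromal factor Foxd1. They were taken as every non-control probe with one of these gene names on the array, which gave 12 probes of 39429 and 9 genes of 22311 tested. Of the 12 probes, 11 passed the filter on dim probes, at least 1 for every gene, and each of these 11 was well above background in all 4 samples. The ureters came from wildtype NMRI mouse embryos of mixed sex at E13.75 (days after conception). They were kept for 18 h either in medium with 10 µg/ml NOGGIN, an extracellular antagonist of bone morphogenetic protein (BMP) ligands, or in medium without it. RNA of 1 NOGGIN and 1 control culture was read on each of 2 two-colour arrays with the dyes exchanged, so each group has 2 samples, and the question is how these 9 transcripts stand when BMP ligands are sequestered. The labels do not say that the cultures came from separate litters. The p-values rest only on the spread of ratios between these 2 arrays, with each gene's variance drawn towards that of all genes tested.

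In the developing kidney, Six2-expressing cells of the cap mesenchyme around the ureteric bud renew themselves or form nephrons, and Foxd1-expressing cells form the stroma around them. Eya1 and Osr1 act earlier, in the mesoderm from which these cells come, and Lhx1 and Pax8 pattern the nephric duct and the early nephron. Meox1 and Meox2 are homeobox factors best known in the mouse from somites, where they act in the formation of the axial skeleton and of muscle. The ureter below the kidney forms no nephrons, and its mesenchyme becomes smooth muscle under BMP4 and hedgehog signals.

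The probes are oligonucleotides of 60 bases. The starts of those on which the results turn are shown, with capitals marking a TG repeat in the Eya1 probe, which is given from base 15 to base 44; the others are bases 1 to 30.
Meox1 (chr11:101738847-101738906, minus strand): ctaagattacatcaagctaattgtgcaagg
Meox2 (chr12:37905809-37905868, plus strand): agacattaggatcataggcaaatcagttac
Lhx1, brighter probe (chr11:84331888-84331947, minus strand): tatgtaaaaaggtgttgtttacacgaggca
Lhx1, dimmer probe (chr11:84335442-84335594, minus strand): agtgtcgccaaagagaacagcctccactcg
Eya1 (chr1:14159982-14160041, minus strand): ttgtgtacgtgaGTGTGTGTGTGTGTGTGT
Positions are in mouse build mm9, as the scanner files give them; where the probes lie relative to exons and UTRs was not analysed here. The dimmer Lhx1 probe spans 153 bases of the genome with its 60 bases, so its letters are split over a gap. The probes of Meox1 and Meox2 did not share a long stretch: over all 66 pairs of the 12 probes, the longest shared run was 7 bases.

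Every ratio is NOGGIN over control with the channels assigned by the dye labels, and the sources do not settle its sign. By these labels 5 of 5 BMP target genes measured (Id1, Id2, Id3, Smad6 and Smad7) were higher in the channels labelled NOGGIN, with a median log2 ratio of 1.45. Sequestering BMP ligands would lower targets that BMP signals raise, so the direction by the dye labels is the reverse of that. The authors' deposited table, whose titles set NOGGIN against control, gives Id1 signed fold changes of -4.65 and -4.53 and Meox1 3.23 and 2.94. For both genes this is opposite to the dye labels. If the dye labels were exchanged, all signs below would turn and all sizes would stay. Below, NOGGIN samples and control samples mean the channels so labelled. Markers of the labelled tissue were well above background in all 4 samples for 7 of 7 ureteric mesenchyme genes and 8 of 8 urothelial genes. The summed normalised intensity of the mesenchyme genes was 142218 and 125594 in NOGGIN samples, against 174377 and 183108 in control samples. Bmp4 was the brightest of the mesenchyme genes, with log2 intensities of 15.77 and 15.59 in NOGGIN samples, against 16.71 and 16.70 in control samples. The mesenchyme sum thus follows Bmp4 most and is not a measure of the amount of mesenchyme. The sum of the urothelial genes was 26077 and 24861 in NOGGIN samples, against 20644 and 25315 in control samples. Of the mesenchyme genes, the log2 ratio was 1.5-fold or more on each array for Bmp4 (-1.02), Sox9 (1.21) and Tbx18 (0.77), and of the urothelial genes for Upk3b (0.89). Of 4 collecting duct tip genes, Wnt11 had -0.82, while Ret (0.25), Etv4 (0.25) and Etv5 (0.06) had mean ratios above 0. The median of this list was 0.16. The part of these cell types in the ratios of the 9 genes was not tested.

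Meox1 and Lhx1 were lower in the channels labelled NOGGIN on both arrays, and the other 7 genes were within 1.5-fold on both arrays. A gene was called where each array alone showed 1.5-fold or more with 1 sign. By this fold rule 2 of 9 genes were called lower, against a background of 1.25% of all genes tested, and 0 were called higher, against 0.941% (2.19% for either direction). The 9 genes were chosen with earlier results of these data known, so these counts are descriptive and do not test for enrichment. The call of Lhx1, but not that of Meox1, was lost with median centring in place of loess. The same 2 genes had an unadjusted p under 0.05 in limma's moderated test, which 6.04% of all genes had, and neither passed an adjusted p of 0.05. No gene on the array did (0%), and the lowest adjusted p was 0.0730. The median log2 ratio of the 9 genes was -0.17 (-0.27 on array 1 and -0.14 on array 2), beside -0.006 over all genes tested. The RNA is from whole ureters, so fewer cells that express a gene and less of its RNA per cell cannot be told apart.

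**Figure D1:**
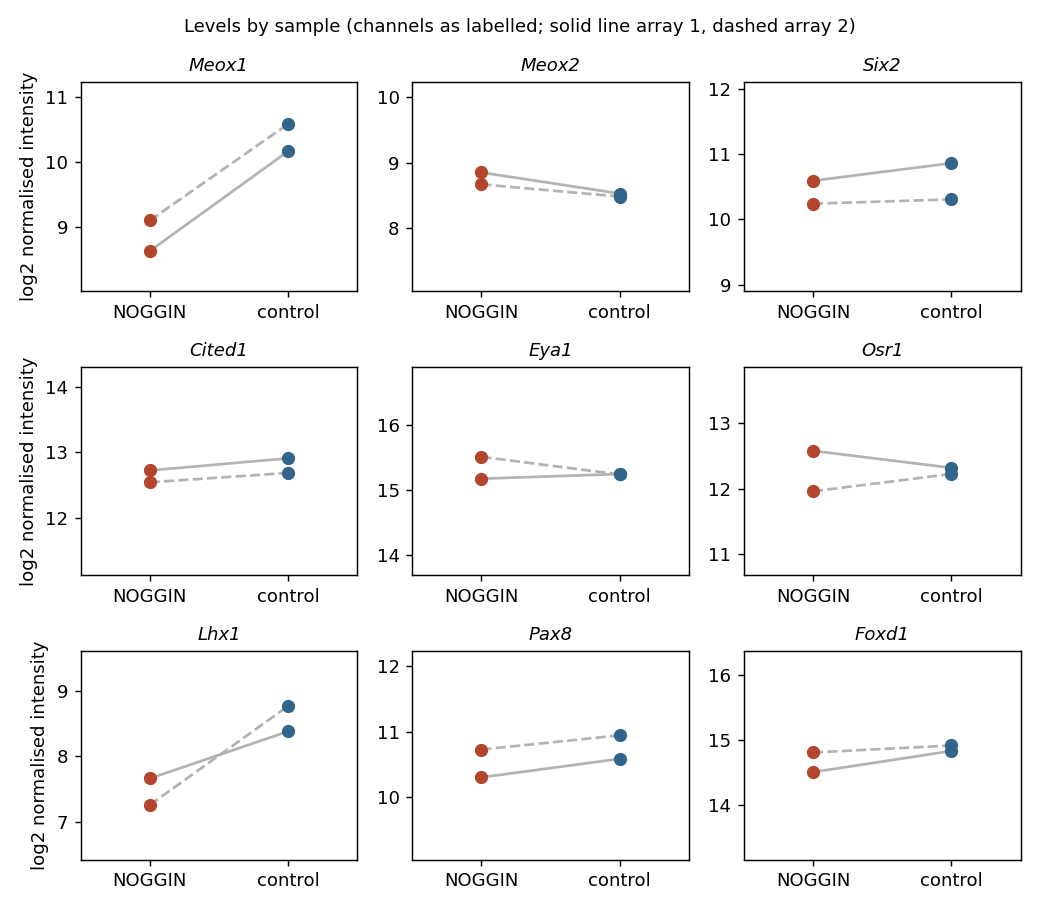
Normalised log2 intensity of the 9 genes in each sample (y axis, with the same height in log2 units for every panel), with the 2 samples labelled NOGGIN on the left and the 2 labelled control on the right of each panel. Lines join the samples of 1 array, solid for array 1 and dashed for array 2. Meox1 and Lhx1 show the steepest lines, both lower in the samples labelled NOGGIN.

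Meox1 had normalised log2 intensities of 8.64 and 9.10 in the samples labelled NOGGIN, against 10.16 and 10.58 in the samples labelled control. Both NOGGIN values lay below both control values. The mean log2 ratio was -1.50 ± 0.04 (SD, n = 2 arrays), with -1.53 on array 1 and -1.48 on array 2 and a 95% interval from -1.90 to -1.10 in limma's fit. The control level was thus 2.88 times the NOGGIN level on array 1 and 2.78 times on array 2. Among all genes tested, 43 had a lower mean ratio. The 4 replicate spots of the probe gave log2 ratios from -1.76 to -1.39 on array 1 and from -1.80 to -1.34 on array 2, so no single spot carried the value. The unadjusted p was 0.000156 and the adjusted p was 0.0989. Over the other settings with a test the adjusted p ran from 0.0237 to 0.620.

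Before background correction and normalization, the mean spot signal of Meox1 was 451 and 466 in the channels labelled NOGGIN, against 787 and 2098 in the channels labelled control. The gap was wider on array 2, where the control RNA was in the green channel. After loess normalization the arrays gave nearly the same ratio, and the part of the log2 ratio that went with the dye (red over green, averaged over the arrays) was 0.03.

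Meox2, the paralog of Meox1, had normalised log2 intensities of 8.85 and 8.67 in NOGGIN samples, against 8.53 and 8.48 in control samples. The groups did not overlap, with NOGGIN above control, as for 14.3% of all genes tested. Its log2 ratio was 0.25 ± 0.10 (SD, n = 2) with a 95% interval from -0.15 to 0.66, which includes no change and leaves out a change of the size of Meox1. The adjusted p in limma's test was 1.00.

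**Figure D2:**
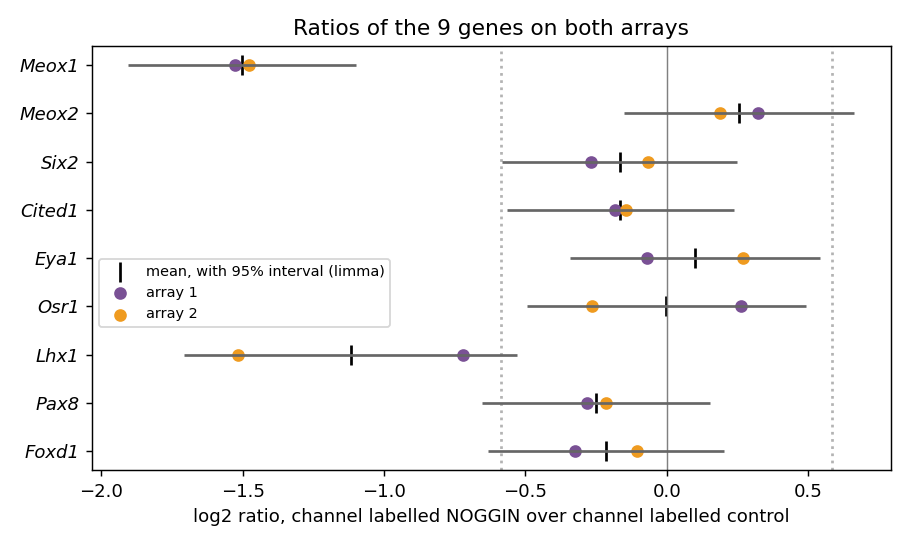
Log2 ratio of NOGGIN over control as labelled (x axis) for the 9 genes (y axis), with points for array 1 and array 2, a tick for their mean and a line for the 95% interval of limma's fit. Dotted lines mark 1.5-fold; Meox1 and Lhx1 lie beyond it on both arrays.

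Lhx1 encodes a LIM homeobox factor needed for the nephric duct and for the first polarity of the forming nephron. Its brighter probe had normalised log2 intensities of 7.66 and 7.25 in NOGGIN samples, against 8.38 and 8.77 in control samples. The groups did not overlap, and the gap was wider on array 2. The log2 ratio was -1.12 ± 0.56 (SD, n = 2), with -0.72 on array 1 and -1.52 on array 2 and a 95% interval from -1.71 to -0.53. The unadjusted p in limma's test was 0.00416 and the adjusted p was 0.267, and over the other settings with a test the adjusted p ran from 0.0863 to 0.711. The dimmer probe, elsewhere in the gene, gave -0.55 on array 1 and -0.99 on array 2, a smaller ratio in the same direction, and on array 1 it fell short of 1.5-fold. With median centring the brighter probe had -0.57 on array 1, also short of 1.5-fold, and -1.71 on array 2. Both probes were well above background in all 4 samples, with mean signals for the brighter one of 197 and 126 in the channels labelled NOGGIN, against 242 and 518 in those labelled control. The dye part of its log2 ratio was -0.40, the largest among the 9 genes, and its ratio varied more between the arrays than that of Meox1.

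Pax8 encodes a paired-box factor that acts with Pax2 in the nephric lineage. It had normalised log2 intensities of 10.30 and 10.73 in NOGGIN samples, against 10.58 and 10.94 in control samples. The groups overlapped, although on each array the NOGGIN value was the lower one. Its log2 ratio was -0.25 ± 0.05 (SD, n = 2), with a 95% interval from -0.65 to 0.15.

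For the nephron progenitor factors Six2 and Cited1, the 95% interval of limma's fit included no change. Six2, a homeobox factor that keeps nephron progenitors from differentiating, had 10.59 and 10.24 in NOGGIN samples, against 10.86 and 10.31 in control samples, on the log2 intensity scale. Its log2 ratio was -0.17 ± 0.14 (SD, n = 2; 95% interval -0.58 to 0.25). Its other kept probe gave -0.05, and the remaining probe, annotated to the transcript AK142139, was not well above background in any sample. Cited1, a transcriptional coregulator that marks the self-renewing progenitors, had 12.72 and 12.54 in NOGGIN samples, against 12.91 and 12.69 in control samples. Its log2 ratio was -0.16 ± 0.03 (SD, n = 2; 95% interval -0.57 to 0.24). For both genes the interval leaves out a ratio as low as the mean of Lhx1.

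Osr1 and Eya1, the factors of the earlier renal mesoderm, had opposite signs on the 2 arrays. Osr1, a zinc finger factor, had 12.58 and 11.96 in NOGGIN samples, against 12.32 and 12.22 in control samples, and both NOGGIN values lay outside the control range, on opposite sides. Its log2 ratio was 0.26 on array 1 and -0.27 on array 2 (mean -0.002 ± 0.37, SD, n = 2). On both arrays the green channel was the higher one, so the dye part, -0.26, exceeded the mean ratio. Eya1, a phosphatase and coactivator that works with the products of Six2 and its relatives, had 15.17 and 15.51 in NOGGIN samples, against 15.25 and 15.24 in control samples. Its log2 ratio was 0.10 ± 0.24 (SD, n = 2).

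Of the 60 bases of the only Eya1 probe, 34 are an unbroken TG repeat, a sequence that occurs in many transcripts. Of all probes on the array, 36 held a TG run of at least 24 bases, under 36 different names, and all 36 were kept. The Eya1 probe is among these 36, so the values of the set below include it. Their mean log2 ratios had a median of 0.10 and lay between -0.02 and 0.29, a range that held 46.7% of all kept probes. On array 1 their median was -0.10 (range -0.45 to 0.14), beside -0.07 for Eya1 and 0.02 over all kept probes. On array 2 it was 0.32 (range -0.06 to 0.60), beside 0.27 for Eya1 and -0.03 over all kept probes. The list of repeat probes was made after the Eya1 value was seen, and how much of the Eya1 signal comes from Eya1 RNA was not tested.

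Foxd1, the forkhead factor of the stromal progenitors, had 14.50 and 14.80 in NOGGIN samples, against 14.83 and 14.91 in control samples. All NOGGIN values lay below all control values by a small margin. The log2 ratio was -0.22 ± 0.15 (SD, n = 2; 95% interval -0.63 to 0.20). Of the 9 genes, 3 (Meox1, Lhx1 and Foxd1) had both NOGGIN levels below both control levels, against 17.9% of all genes tested, and 6 had a ratio below 0 on both arrays, against 23.3%. Only Meox2 had a ratio above 0 on both arrays (1 of 9, against 20.4%).

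**Figure D3:**
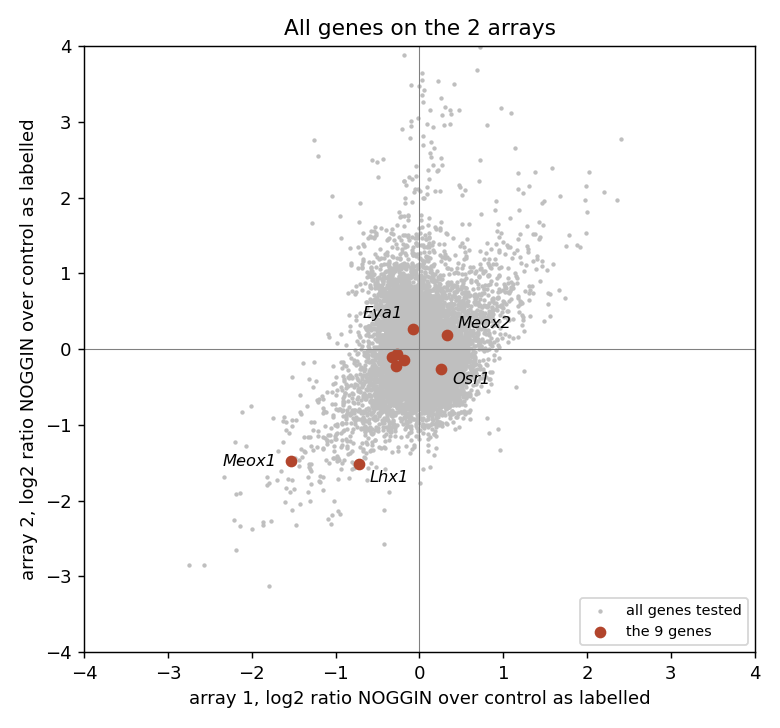
Log2 ratio of NOGGIN over control as labelled on array 1 (x axis) and array 2 (y axis) for all genes tested (grey) and the 9 genes (red). Meox1 lies near the diagonal at the low end and Lhx1 is lower on array 2 than on array 1; 4 genes lie outside the axes, which end at 4 log2 units on either side of 0.

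The paralogs of these genes were mostly on the lower side too. Of 14 listed, 12 were measured: the fold rule called 0 higher and 2 lower, 8 were below 0 on both arrays and 1 was above 0 on both. The median log2 ratio was -0.34 (-0.24 on array 1 and -0.46 on array 2), beside -0.006 over all genes. The 2 lower ones were Cited4 and Osr2, each a paralog of a gene that the rule did not call. For this list and those below, the shares over all genes tested are 1.25% called lower and 0.941% called higher. On both arrays 23.3% of all genes were below 0 and 20.4% above 0. Both NOGGIN levels lay below both control levels for 17.9% of all genes, and above them for 14.3%.

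Cited4, a transcriptional coregulator like Cited1, had 9.16 and 9.21 in NOGGIN samples, against 10.60 and 10.76 in control samples (log2 ratio -1.49 ± 0.08, SD, n = 2). Osr2, a zinc finger factor like Osr1, had 8.80 and 8.49 in NOGGIN samples, against 10.12 and 10.05 in control samples (-1.44 ± 0.17). For both, the groups did not overlap and the gap was far wider than that between samples of a group. Neither passed in limma's test (adjusted p 0.0997 and 0.102). Eya2 (-0.43) and Foxd2 (-0.41), named after their values were seen, had smaller ratios on the same side, with an unadjusted p under 0.05 in limma's test.

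Other genes of the cap mesenchyme went both ways. Of 12 listed, 11 were measured, and the fold rule called 1 higher and 1 lower. Their median log2 ratio was -0.05, and it differed in sign between the arrays (0.14 on array 1, -0.24 on array 2). Wt1, a zinc finger factor needed for the metanephric mesenchyme, had 12.24 and 12.38 in NOGGIN samples, against 13.15 and 13.26 in control samples (log2 ratio -0.90 ± 0.02, SD, n = 2). Tmem100, a membrane protein gene, had 10.55 and 10.51 in NOGGIN samples, against 9.82 and 9.85 in control samples (0.69 ± 0.05). The groups of Wt1 and of Tmem100 did not overlap, in opposite directions.

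Genes of nephron differentiation stood on the lower side or near 0. Of 11 listed, 10 were measured: the fold rule called 0 higher and 2 lower, 6 were below 0 on both arrays, and the median was -0.06. Dll1, a Notch ligand of the early nephron, had 9.75 and 9.57 in NOGGIN samples, against 10.71 and 11.03 in control samples (log2 ratio -1.21 ± 0.35, SD, n = 2). Irx3, a homeobox factor of the tubule, had 9.47 and 8.93 in NOGGIN samples, against 10.25 and 10.16 in control samples (-1.01 ± 0.32). Both had the wider gap on array 2, as Lhx1 did.

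Of 11 renal stroma genes, all measured, the fold rule called 0 higher and 2 lower, with a median of -0.18 (0.10 on array 1 and -0.37 on array 2). Ntn1, the secreted guidance protein netrin, had 11.26 and 11.66 in NOGGIN samples, against 12.57 and 12.81 in control samples (log2 ratio -1.23 ± 0.11, SD, n = 2). Smoc2, a secreted matrix-associated protein, had 15.01 and 14.99 in NOGGIN samples, against 16.08 and 16.13 in control samples (-1.10 ± 0.05). Neither gene's groups overlapped. Across these lists no gene passed an adjusted p of 0.05.

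**Figure D4:**
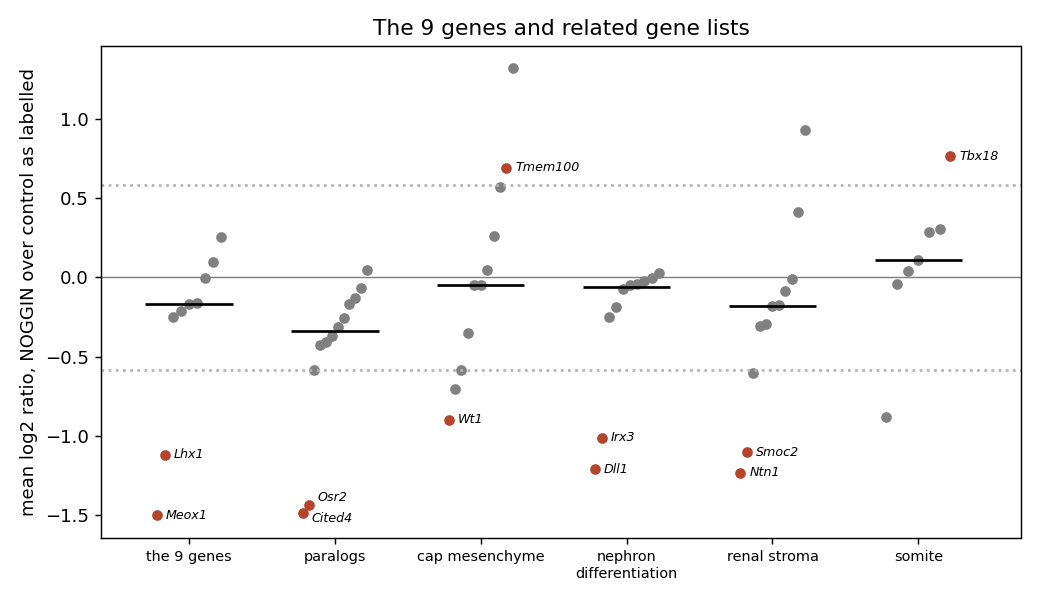
Mean log2 ratio of NOGGIN over control as labelled (y axis) for the measured genes of each list (x axis), with a bar at the list's median. Genes called by the fold rule are red and named, others grey; dotted lines mark 1.5-fold, and 3 lists besides the 9 genes have called genes only on the lower side.

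Somite genes, among which MEOX factors act in the mouse, went both ways. Of 9 listed, 7 were measured: the fold rule called 1 higher and 0 lower, and the median was 0.11. On both arrays 3 were above 0 and 1 was below. The higher one was Tbx18, a T-box factor of somites and of ureteric mesenchyme, with 14.48 and 14.48 in NOGGIN samples, against 13.60 and 13.84 in control samples (log2 ratio 0.77 ± 0.17, SD, n = 2). Nkx3-2, a homeobox factor that MEOX proteins activate in mouse somites, had 0.30 ± 0.10. Pax1, a paired-box factor of the sclerotome, had 6.37 and 6.44 in NOGGIN samples, against 6.85 and 7.73 in control samples. The mean ratio of Pax1 was -0.88 ± 0.57 on the log2 scale (SD, n = 2), larger in size than that of any other measured gene of the list, but on array 1 (-0.48) it was short of 1.5-fold. Pax1 was not well above background in all 4 samples, so low signal limits this ratio. Nkx3-2 and Pax1 were named after their values were seen.

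The measured genes nearest to Meox1, by the distance between their log2 ratios over the 2 arrays, were Myog at 0.04, Ptger3 at 0.06 and Sfrp4 at 0.09. Myog, a transcription factor of skeletal muscle formation, had -1.57 on array 1 and -1.48 on array 2. Over only 2 arrays this distance says no more than that the ratios were of like size and sign. Since Myog is also a skeletal muscle marker, that marker list is given whole. Of 6 genes, 3 (Myog, Actn3 and Myod1) were well above background in all 4 samples and 3 (Ckm, Myf5 and Pax7) were not well above background in any. All spots of Myod1 were marked as outliers on at least 1 array, so it had no value in the fit. With those spots kept, Myod1 had -1.27 on array 1 and 1.49 on array 2. The summed normalised intensity of the 2 kept genes was 1536 and 1757 in NOGGIN samples, against 1821 and 2614 in control samples. Actn3, the other kept gene, had a log2 ratio of 0.67 ± 0.23 (SD, n = 2), opposite to Myog. The part of muscle cells in the Meox1 ratio was not tested.

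**Figure D5:**
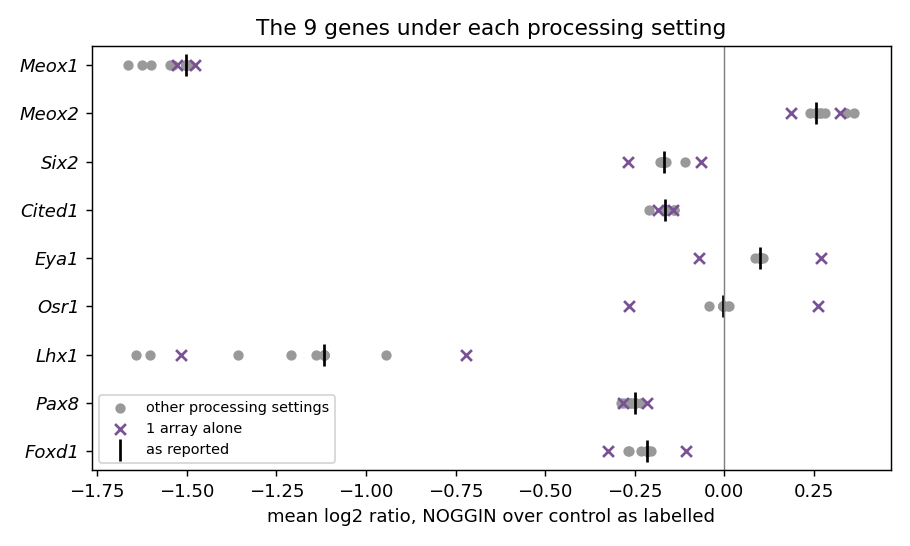
Mean log2 ratio of NOGGIN over control as labelled (x axis) for the 9 genes (y axis) as reported (tick), under the other processing settings (grey points) and on 1 array alone (crosses). Meox1 stays between -1.66 and -1.48, Lhx1 spreads from -1.64 to -0.72, and Osr1 and Eya1 cross 0.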

How the data were processed

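Each of the 2 arrays lay on the same slide and set 1 NOGGIN against 1 control sample, with dyes exchanged. The authors' scanner output gives unnormalized spot intensity values (mean signal and local background), per the file headers, read by Agilent Feature Extraction 10.7.3.1 according to the submitters' processing notes. It also gives processed signals, corrected for background and dye, and a deposited log10 ratio of red to green. A further table deposited by the authors has a score per probe, which is a signed fold change. How this score was normalized was not stated, and its sample titles set NOGGIN against control. Turned to log2, the score correlated with the red to green ratio at 0.717 (array 1) and -0.800 (array 2). Under the dye labels this makes the score control over NOGGIN, the reverse of the titles.

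In limma 3.58.1 (R 4.3.3), mean signals were background-corrected (normexp, offset 50) and loess-normalized per array; control spots had weight 0. Spots marked as outliers (3.36% on array 1, 3.09% on array 2) were dropped, and saturated spots numbered 0. Averaging the 4 spots per probe followed. The filter took probes for which a share above 0.5 of the spots exceeded background clearly in either channel, on each array (29649 of 39429). Each gene was represented by its brightest probe. RefSeq accessions (assembly GRCm38.p6) updated the names of matched probes, 71.8% of all. Levels by sample were Aquantile-scaled between arrays. Detected probes made up 76.9% (NOGGIN as labelled) and 65.3% (control) on array 1, and 66.4% and 76.4% on array 2. Precision is limited by there being 2 arrays.

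Dye-turned log2 ratios entered lmFit and eBayes, with 1 residual and 4.35 prior degrees of freedom and two-sided p-values, Benjamini-Hochberg adjusted across 22311 genes. The fit was tested on simulated data. Members and lists were chosen with earlier results of these data known. Named genes are the 9 members, genes of the 5 context lists (paralogs, cap mesenchyme, nephron differentiation, renal stroma, somite) called by the fold rule, the 3 nearest to Meox1 and the BMP targets, besides those said to be named after their values were seen. Not every gene of the lists is reported here. Alternatives changed background correction, normalization, filters, spot and probe summaries, the variance model and thresholds, or used the authors' values or a single array. Plots were made in matplotlib 3.10.9.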

Additional observations from a re-analysis of the deposited data

How the results depend on the processing

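In limma's test 0 genes passed an adjusted p of 0.05 (1348 had an unadjusted p under 0.05). Other settings gave 141 (trended, robust variance), 129 (normexp offset 10), 114 (median centring), 100 (both channels required above background), 43 (threshold of 0.1), 35 (background left uncorrected) and 22 (outliers retained). Processed signals, no filter, spot medians, the mean over kept probes and the authors' values each gave 0. The adjusted p of Meox1 was below 0.05 in 4 of these: 0.0303 with trended, robust variance, 0.0253 with offset 10, 0.0237 with median centring and 0.0296 with both channels required. The fold rule called 488 genes, against 852 from processed signals, 149 with 2-fold required, and between 961 and 2631 on 1 array alone. Among the 9 genes it called 2, against 1 after median centring, where Lhx1 had -0.57 on array 1, and 1 (Meox1) with 2-fold required. Osr1, close to 0, was 0.010 in processed signals and 0.012 in the authors' values after their sign was turned to NOGGIN over control by the dye labels, and its single arrays lay between -0.27 and 0.26. The single arrays of Eya1 lay between -0.071 and 0.27. Of 126 alternative values of the 9 genes, with the authors' values turned in this way, 4 differed in sign from the reported value, all of Osr1 and Eya1. As deposited, without that turn, the authors' values of Meox1, Lhx1 and Meox2 have the opposite sign. Apart from the use of fewer arrays or another threshold, the cause was not tested. A single array allows no test. The fit was itself paired, because every array ratio sets 1 NOGGIN against 1 control sample. A further block would use up the 1 residual degree of freedom. Low signal limits the dimmer Lhx1 and Six2 probes. The brighter Lhx1 probe was also dim, with mean signals of 197 and 126 in the channels labelled NOGGIN. Its log2 ratio was -1.12 as reported, -1.36 with offset 10 and -1.64 in processed signals.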

Other observations

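Myod1, another skeletal muscle factor, had all spots of its probe marked as outliers on at least 1 array and so had no value in the fit. With those spots kept, its log2 ratio was -1.27 on array 1 and 1.49 on array 2, opposite in sign, unlike Myog. Gdnf, the ligand by which cap mesenchyme signals to the ureteric bud, had a log2 ratio of -0.70 ± 0.20 (SD, n = 2), and Sall1, a zinc finger factor of the same cells, had 0.57 ± 0.03. Crym, another cap mesenchyme gene, was uneven, with 0.47 on array 1 and 2.16 on array 2. These genes were named after their values were seen.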
